A study of Homo sapiens with 40 samples.

Results

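The response to epidermal growth factor (EGF) after 24 h was compared between 2 breast cancer cell lines, BT474 and its trastuzumab-resistant derivative BT474R. For each gene, the change from vehicle to EGF in BT474R was set against the same change in BT474, and the difference of both changes, called the line difference below, was tested as an interaction. It is given as a log2 value, positive where EGF acted more upward, or less downward, in BT474R. The comparison rests on 8 of the 40 RNA libraries of the study, 2 from each of 4 groups: BT474 with vehicle, BT474 with EGF, BT474R with vehicle and BT474R with EGF, all collected at 24 h. All of the 24641 genes that passed the filter on low counts, out of 44584 rows in the table, were tested.

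BT474 is a luminal breast cancer line with an amplified ERBB2 gene, which encodes the receptor HER2. BT474R is 1 clone obtained by growing BT474 in trastuzumab, an antibody against HER2, so a difference between the lines cannot be told apart from a difference between this clone and the parental culture. Both lines were serum-starved before treatment, and the vehicle was water. The duplicates are not stated to come from separate cultures, and p-values therefore measure the spread between duplicate libraries only. That spread was pooled over all 40 libraries of the study, not only those compared.

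EGF binds its receptor EGFR, which pairs with other receptors of the ERBB family, HER2 among them. The activated receptors signal through RAS and the MAP kinases, which switch on immediate early genes such as FOS and EGR1, and through PI3 kinase and AKT. The same pathways induce their own inhibitors, among them DUSP phosphatases and ERRFI1, and they move resting cells toward DNA replication and mitosis. Heregulin (HRG), the other ligand of the study, binds ERBB3 and ERBB4.

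The 8 libraries held between 19941960 and 26367095 counts (median 24429046), and levels are given in counts per 1000000 (CPM) scaled by the TMM method, with n = 2 libraries per group. A group with 3 counts or fewer in each library, at most 0.15 CPM, is taken as at the detection limit, which covers counting error only. Replicates differed by more than counting noise in each of the 4 groups (median chi-square 0.821 to 1.42, with 0.455 from counting noise alone). The common dispersion, a measure of the replicate spread that counting does not explain, was lower in BT474 (0.00121) than in BT474R (0.00306). All 10 markers of luminal breast epithelium together stood at 12277 to 14077 CPM in the 8 libraries, although TFAP2B was at or below 3 counts in 4 of them and GATA3 was low in BT474R. Of the 5 basal markers, KRT14 and ACTA2 were at the detection limit in all 8 libraries. TP63 (24 to 178 counts) and OXTR (39 to 93 counts) were above it in each, and KRT5 had 0 to 36 counts. Of the 6 endothelial markers, VWF (218 to 456 counts) and CLDN5 (9 to 23 counts) were above it in each library, and TEK was at it in all. Of 8 leukocyte markers, 5 were at the detection limit in all 8 libraries, PTPRC and CD3E among them. The summed leukocyte markers stood at 1.64 to 3.05 CPM in 6 libraries and at 4.38 to 4.91 CPM in both EGF-BT474R libraries. Most of this sum was the 1 gene CD68 (38 to 125 counts), as CD14 and NKG7 had at most 4 counts in any library. The part of these markers in the results was not tested. COL1A1, a collagen gene used as a fibroblast marker, was detected in every library, while 5 of the 7 fibroblast markers were at the detection limit.

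A line difference was called for 989 genes at 24 h, 4.01% of all genes tested (adjusted p under 0.05, with edgeR's quasi-likelihood test and p-values adjusted by Benjamini-Hochberg over all of them). The line difference was positive for 474 of them (1.92%) and negative for 515 (2.09%). Over all genes tested its median was -0.02, and 3457 genes (14%) had an unadjusted p under 0.05. EGF itself changed 20.5% of the genes in BT474R and 13.9% in BT474 in the same fit. Interferon response genes made up 58 of the 474 genes with a positive difference and 2 of the 515 with a negative one, and the account below is mainly of the other 416 and 513.

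These genes were of several kinds. Of the 416 genes with a positive difference, 243 (58.4%) rose with EGF in BT474R and did not pass the test in BT474. Another 68 rose in both lines, more so in BT474R. In 60 of the 416 genes, the change that passed the test was a fall in BT474, and 30 rose in BT474R while they fell in BT474. Of the 513 genes with a negative difference, 225 (43.9%) fell with EGF in BT474R without passing the test in BT474. A further 144 (28.1%) rose in BT474 without passing the test in BT474R. The plot of the EGF effect in each line shows both sides.

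**Figure D1:**
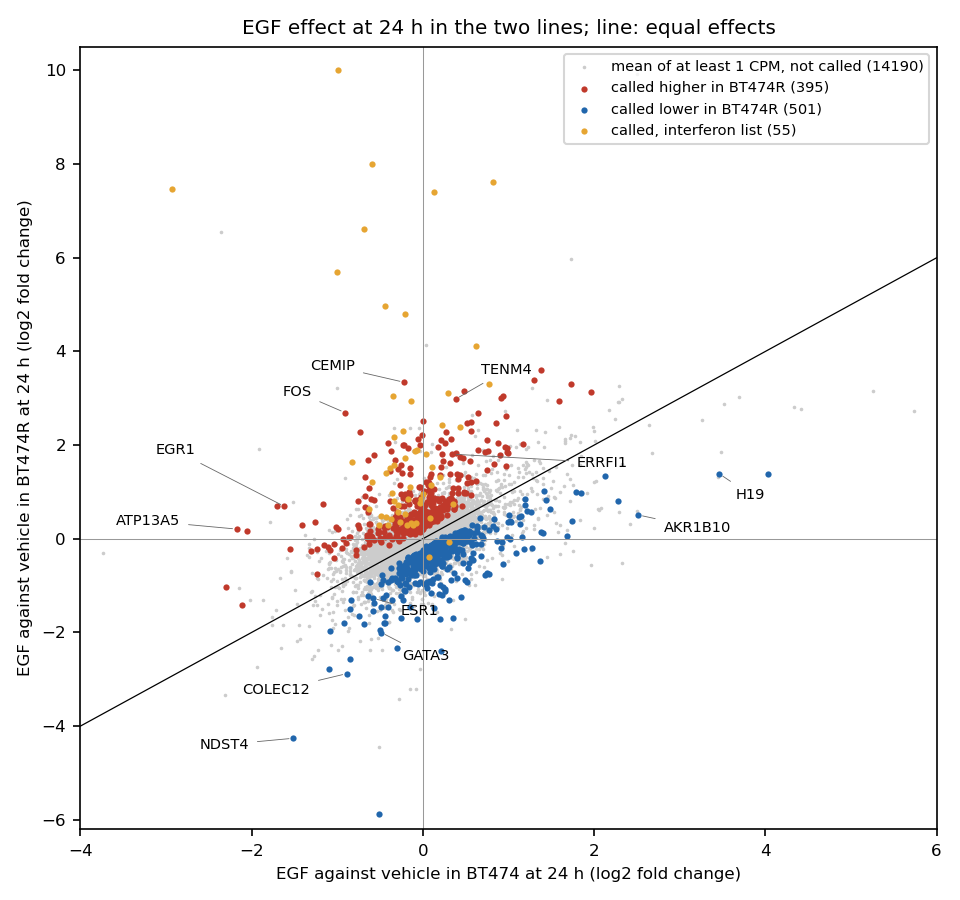
Log2 fold change of EGF against vehicle at 24 h in BT474 (x axis) and in BT474R (y axis), for genes with a mean of at least 1 CPM, 1 point per gene, with the diagonal as the line of equal effects. Red points (395) and blue points (501) are genes with a positive or negative line difference outside the interferon list, orange points (55) are called interferon genes, and grey points (14190) were not called, and FOS and CEMIP lie far above the diagonal with H19 and NDST4 far below it.

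The immediate early genes FOS and EGR1 lay on the positive side and genes of mitosis on the negative side, and the stretches before the start sites of 5 of these genes are shown because the genes of each group are known to share promoter elements. The windows hold the 250 bases before the start site, 5′ to 3′, from RefSeq on GRCh38.p14. Capitals mark CArG boxes, the core of serum response elements, in EGR1. They also mark the short form of the cAMP response element, TGACG, which reads CGTCA on the other strand, in FOS and EGR1. In the mitosis genes they mark the CCAAT box, which reads ATTGG on the other strand. The last run marked is that of the cell cycle homology region (CHR), TTTGAA, with TTCAAA for the other strand.
FOS (chr14:75278578-75278827, plus strand): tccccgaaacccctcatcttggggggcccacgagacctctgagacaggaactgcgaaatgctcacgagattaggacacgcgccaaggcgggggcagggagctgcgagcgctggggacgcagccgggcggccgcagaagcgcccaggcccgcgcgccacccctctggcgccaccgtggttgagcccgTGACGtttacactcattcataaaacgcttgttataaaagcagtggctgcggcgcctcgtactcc
EGR1 (chr5:138465229-138465478, plus strand): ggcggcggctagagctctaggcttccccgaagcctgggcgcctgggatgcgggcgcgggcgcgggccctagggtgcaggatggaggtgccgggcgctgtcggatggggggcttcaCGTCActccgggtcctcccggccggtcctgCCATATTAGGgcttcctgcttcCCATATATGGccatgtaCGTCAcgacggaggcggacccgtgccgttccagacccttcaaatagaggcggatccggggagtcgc
PLK1 (chr16:23678639-23678888, plus strand): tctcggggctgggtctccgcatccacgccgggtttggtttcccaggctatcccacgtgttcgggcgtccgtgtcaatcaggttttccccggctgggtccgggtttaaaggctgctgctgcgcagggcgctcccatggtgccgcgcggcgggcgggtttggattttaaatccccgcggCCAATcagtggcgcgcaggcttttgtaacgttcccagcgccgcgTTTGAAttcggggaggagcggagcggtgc
CENPA (chr2:26785806-26786055, plus strand): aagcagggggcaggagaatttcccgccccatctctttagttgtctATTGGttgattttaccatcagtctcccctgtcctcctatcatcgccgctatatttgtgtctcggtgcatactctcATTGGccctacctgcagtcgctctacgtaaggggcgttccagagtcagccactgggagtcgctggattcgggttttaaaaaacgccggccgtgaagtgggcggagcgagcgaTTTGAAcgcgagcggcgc
KIF20A (chr5:138178862-138179111, plus strand): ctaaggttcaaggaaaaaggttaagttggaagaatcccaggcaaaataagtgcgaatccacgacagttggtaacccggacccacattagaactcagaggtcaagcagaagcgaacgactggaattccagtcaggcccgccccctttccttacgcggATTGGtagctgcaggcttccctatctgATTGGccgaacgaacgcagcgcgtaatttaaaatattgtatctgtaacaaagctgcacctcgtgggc

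The EGR1 window holds 2 CArG boxes, at 105 to 96 and 83 to 74 bases before the start, and CGTCA on either side of the pair. A CArG box is in 1.14% of the 27305 RefSeq promoter windows of this length, and EGR1 is the 1 of 31 MAP kinase list windows that has it. The lack of a CArG box in the FOS window says nothing about sequence further upstream, which was not searched. The FOS window holds 1 TGACG, at 64 to 60 bases before the start. On either strand, this run is in 21.7% of all windows and 26.4% of those of genes tested. It is in 41.9% of the MAP kinase list windows, and at near shares in those of the mitosis (38.7%) and DNA replication (37.5%) lists. An AP-1 site, TGANTCA, was searched for as well and is in 6.6% of all windows and in 1 of the 31. The CHR letters lie close to the start in PLK1 and CENPA, at 29 to 24 and 18 to 13 bases before it, downstream of CCAAT boxes on one strand or the other. KIF20A has a pair of ATTGG runs and no CHR letters in this window, which says only that these letters are not there.

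Of the receptors, EGFR stood far higher in BT474R, and its response to EGF was not called different. EGFR stood at 106 and 100 CPM in BT474 with vehicle and at 102 and 119 CPM with EGF. In BT474R it stood at 1021 and 1212 CPM with vehicle and at 1083 and 1167 CPM with EGF, far above every BT474 library. Its line difference was -0.09 ± 0.13 (SE) and was not called, nor was that of ERBB2 (0.04 ± 0.05), at 6578 to 7263 CPM in all 8 libraries, or of ERBB3 (-0.01 ± 0.07). Of the 14 receptors and ligands tested, only ERBB4, an HRG receptor, was called. ERBB4 fell from 34.1 and 34.7 CPM to a mean of 19.1 CPM in BT474 and from 16.1 and 14.3 CPM to 6.19 and 6.15 CPM in BT474R. Its line difference of -0.46 ± 0.14 lay close to the threshold (edgeR adjusted p = 0.0480) and was lost under 7 of 9 alternative analyses. Among the ligands, AREG (amphiregulin) rose in both lines, by 2.17 in BT474 and 2.76 in BT474R on the log2 scale, and its difference of 0.59 ± 0.36 was not called. HBEGF (heparin-binding EGF) had a large difference of 2.31 ± 0.71 that missed the threshold (edgeR adjusted p = 0.0573), at levels of 0.154 to 1.34 CPM.

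Several targets and feedback inhibitors of MAP kinase signalling rose more, or rose only by the test, in BT474R. Of 41 on the list, 10 had a positive line difference and 3 a negative one (31.7%, against 4.01% of all genes), and their median was 0.27. With EGF, 25 of them rose and 4 fell in BT474R, where 11.8% of all genes rose and 8.72% fell. In BT474, 18 rose and 2 fell, against 8.75% and 5.13% of all genes. FOS, which encodes a subunit of the transcription factor AP-1, had the largest difference on the list. In BT474 it was at 3.11 and 2.92 CPM with vehicle and at 1.45 and 1.77 CPM with EGF, and in BT474R at 1.54 and 3.15 CPM with vehicle and at 13.3 and 16.1 CPM with EGF. Both EGF-BT474R libraries thus stood above the 6 others, which lay close together. The line difference was 3.60 ± 0.40 (SE; edgeR adjusted p = 7.01e-08).

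EGR1, a zinc finger transcription factor, reached its difference in another way. It dropped from 25.9 and 29.5 CPM to 9.32 and 8.74 CPM in BT474 and rose from 6.0 and 4.47 CPM to 7.94 and 9.12 CPM in BT474R. The EGF libraries of both lines overlapped, and the vehicle libraries were far apart. Its line difference was 2.31 ± 0.25. At 1 h, where 0.138% of all genes had a called line difference, EGF had raised EGR1 by 3.77 ± 0.12 in BT474R and 3.78 ± 0.11 in BT474. It had raised FOS more in BT474 (4.15 ± 0.17) than in BT474R (2.82 ± 0.19), a called difference of -1.34 ± 0.28. At 12 h, FOS was above vehicle in BT474R (1.86 ± 0.29) and below it in BT474 (-0.99 ± 0.30). The line difference of FOS was thus negative at 1 h and positive at 12 h and 24 h.

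Among the inhibitors that MAP kinase signalling induces, ERRFI1 and DUSP6 rose more in BT474R and DUSP4 rose more in BT474. ERRFI1, which binds and inhibits ERBB receptors, stood at 26.3 and 29.4 CPM in BT474 with vehicle and 34.4 and 36.3 CPM with EGF, and at 17.9 and 20.9 CPM and then 62.2 and 73.0 CPM in BT474R. DUSP6, a phosphatase of ERK, rose from 32.2 and 34.9 CPM to 128 and 134 CPM in BT474 and from 59.1 and 59.6 CPM to 523 and 526 CPM in BT474R. The 4 groups did not overlap for either gene, and the differences were 1.47 ± 0.11 and 1.18 ± 0.13. DUSP4, another MAP kinase phosphatase, went the other way. It rose from 346 and 368 CPM to 765 and 820 CPM in BT474 and from 1194 and 1352 CPM to 1772 and 1767 CPM in BT474R, a difference of -0.67 ± 0.07. DUSP4 was thus higher in BT474R with and without EGF, with the smaller fold.

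PHLDA1, a target of ERK signalling, rose from 3.27 and 2.73 CPM to 14.7 and 15.1 CPM in BT474R, and from 7.06 and 7.59 CPM to 8.32 and 13.7 CPM in BT474, where the EGF replicates were far apart (difference 1.73 ± 0.27). MYC, a transcription factor that drives growth, was at 34.1 to 38.2 CPM in all 4 BT474 libraries. In BT474R it was at 1.23 and 1.98 CPM with vehicle and 2.92 and 3.78 CPM with EGF, so its positive difference of 1.14 ± 0.23 came at a level far below that of BT474. Its call was lost without 2 of the 8 libraries in turn. Of the other called members, IER3 (0.86 ± 0.23), JUNB (0.66 ± 0.12), IER2 (0.66 ± 0.09) and FOSL2 (0.49 ± 0.11), immediate early genes or AP-1 subunits, were positive, and IER3 lost its call without 5 of the 8 libraries and FOSL2 without 3. FOSL2 stood at a mean of 146 CPM with vehicle and 150 CPM with EGF in BT474R, and at 166 and then 122 CPM in BT474. Its positive value thus came with a lower level in BT474. JUNB and IER2 went up in BT474R and slightly down in BT474, from 90.2 to 80.4 CPM and from 80.9 to 75.6 CPM. KLF4, a transcription factor, and LRIG1, an inhibitor of ERBB receptors, were negative at -0.45 ± 0.12 and -0.33 ± 0.09. LRIG1 lost its call under 5 of 9 alternatives and KLF4 under 2. When 1 library was left out, KLF4 lay between -0.54 and -0.37. LRIG1 then moved to between -0.47 and -0.20, most without replicate 1 of EGF-BT474 or replicate 2 of EGF-BT474R.

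**Figure D2:**
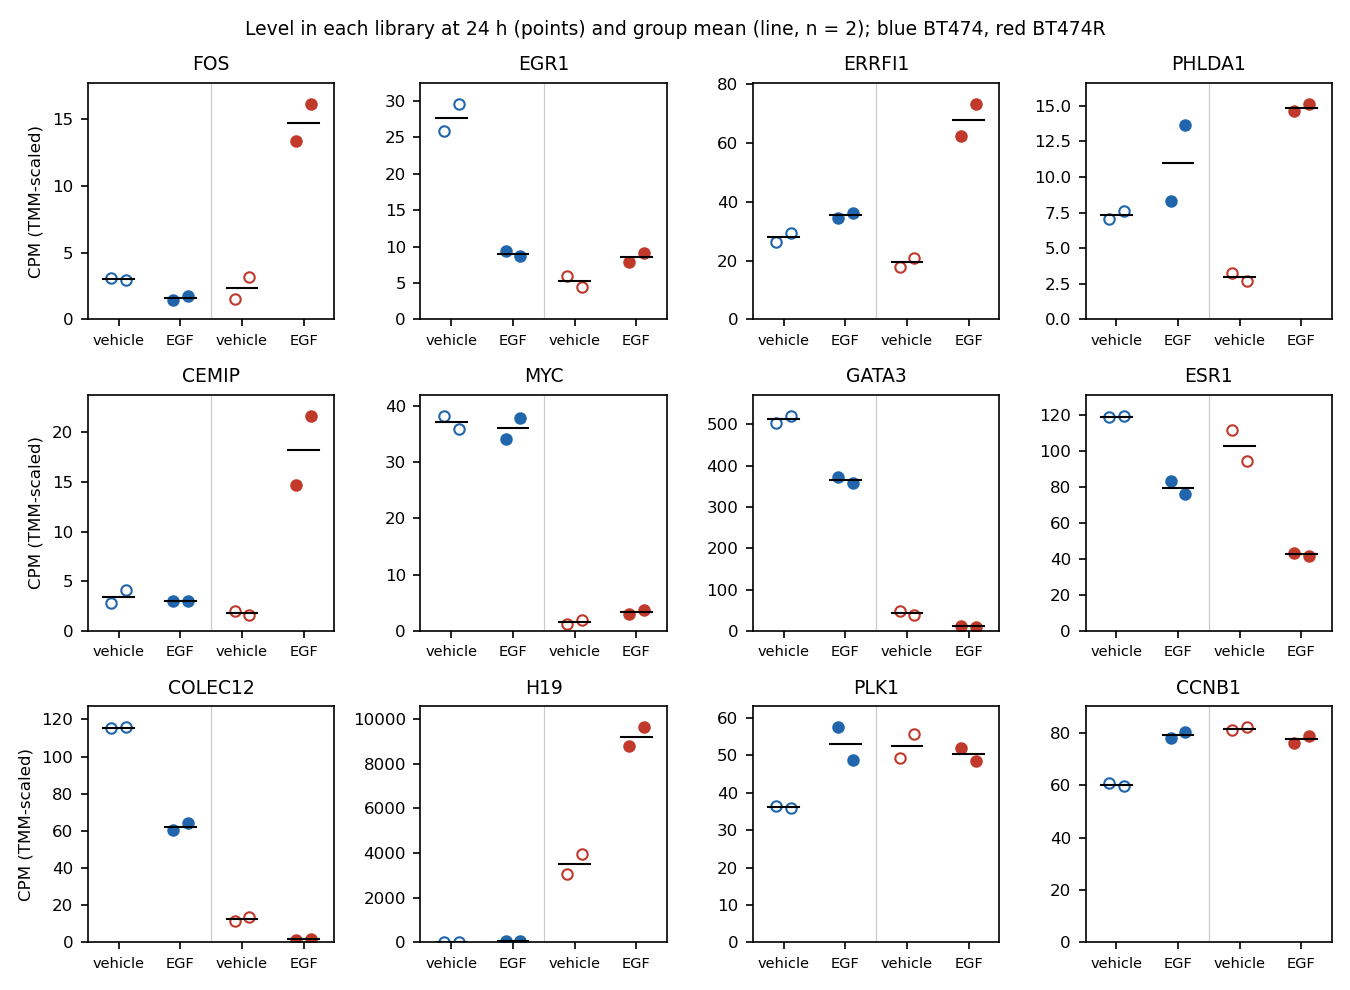
Level (CPM, linear axis from 0) of 12 genes in each of the 8 libraries at 24 h, with open points for vehicle, filled points for EGF, blue for BT474, red for BT474R and a bar at the mean of 2 libraries. FOS and CEMIP rise with EGF only on the red side, the EGR1 levels with EGF overlap between the lines, GATA3 and MYC are far lower in BT474R, and PLK1 and CCNB1 rise with EGF on the blue side.

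Genes of mitosis had the largest called share of the lists tested. Of 38, 23 had a negative line difference, against 2.09% of all genes, and none a positive one by edgeR, DESeq2 or limma voom or at an unadjusted p under 0.05. The median was -0.35, and all 38 values lay below 0, between -0.62 for PLK1 and -0.01. EGF raised 37 of the 38 at 24 h in BT474 (8.75% of all genes rose there), with a median of 0.39. In BT474R it raised 7 (11.8% of all genes rose there) and lowered 2 (8.72%), with a median of 0.04. In these bulk libraries, fewer cells in mitosis and less RNA of these genes per cell cannot be told apart.

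PLK1, a kinase that drives entry into mitosis, rose from 36.5 and 35.9 CPM to 57.4 and 48.8 CPM in BT474. In BT474R it was at 49.3 and 55.8 CPM with vehicle and 52.0 and 48.5 CPM with EGF. The EGF-BT474 libraries thus overlapped both BT474R groups, and the line difference was -0.62 ± 0.13 (edgeR adjusted p = 0.00167). CCNB1, the cyclin that activates CDK1, also rose in BT474 and not in BT474R, with 60.8 and 59.7 CPM and then 78.1 and 80.5 CPM in BT474, and 81.3 and 82.0 CPM and then 76.3 and 78.8 CPM in BT474R (difference -0.47 ± 0.07). CENPA, the histone of the centromere, rose from 11.0 and 10.2 CPM to 15.4 and 14.8 CPM in BT474 and stood between 17.9 and 19.6 CPM in BT474R (-0.57 ± 0.13). KIF20A, a kinesin of cell division, rose in BT474 from 46.0 and 48.4 CPM to 64.7 and 54.4 CPM and fell in BT474R from 52.0 and 50.2 CPM to 43.5 and 41.7 CPM (-0.60 ± 0.10). The kinases NEK2 (-0.61 ± 0.13) and AURKA (-0.54 ± 0.08), the proliferation marker MKI67 (-0.43 ± 0.08), the transcription factor FOXM1 (-0.42 ± 0.09), the kinetochore protein CENPF (-0.41 ± 0.08), the ubiquitin ligase subunit UBE2C (-0.40 ± 0.08) and the topoisomerase TOP2A (-0.35 ± 0.07) were called in the same direction. CDK1 itself rose in both lines and was not called (-0.17 ± 0.10).

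Averaged over the 38 genes, the log2 CPM was 5.64 and 5.59 in BT474 with vehicle, 5.94 and 6.0 in BT474R with vehicle, 6.04 and 5.96 in BT474 with EGF and 6.02 and 6.02 in BT474R with EGF. The vehicle libraries of the lines lay apart, and the EGF libraries overlapped. At T0, in libraries separate from these, 22 of the 38 genes were higher in BT474R and 3 lower (25.1% and 21.7% of all genes). When only the 8 libraries compared were fitted, 12 mitosis genes were called in place of 23, and the count was 16 to 24 when 1 library was left out. FOXM1 moved to -0.28 and MKI67 to -0.28 without replicate 1 of EGF-BT474.

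Genes of DNA replication, which precede mitosis in the cell cycle, did not share the pattern at 24 h. None of the 46 tested was called in either direction by edgeR, DESeq2 or limma voom, with 8 positive and 1 negative at an unadjusted p under 0.05, and their median difference was 0.08. EGF raised 34 of them in BT474 (median 0.27) and 42 in BT474R (median 0.35), against 8.75% and 11.8% of all genes. MCM10, a replication initiation factor, rose from 52.4 and 51.9 CPM to 66.5 and 66.6 CPM in BT474 and from 42.6 and 50.9 CPM to 68.1 and 69.7 CPM in BT474R, a difference of 0.21 ± 0.10. CCNE2, a cyclin of the start of DNA replication, had a difference of 0.10 ± 0.09.

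At 12 h, it was the DNA replication genes whose EGF effect differed. EGF raised all 46 DNA replication genes in BT474 (median 0.42) and 17 in BT474R (median 0.19), against 8.64% and 8.40% of all genes. Their line difference at 12 h was negative in 13, against 1.03% of all genes, and positive in none by edgeR, DESeq2 or limma voom or at an unadjusted p under 0.05, with a median of -0.26 and 6 called by DESeq2. MCM10 (-0.41 ± 0.10) and CCNE2 (-0.35 ± 0.09) were among the 13. Of the mitosis genes, 17 rose in BT474 at 12 h (median 0.16) and 25 in BT474R (median 0.23), and the line difference was positive for CCNB1 (0.29 ± 0.07) and UBE2C (0.45 ± 0.09), against 0.929% of all genes, and negative for none by edgeR, DESeq2 or limma voom (1 at an unadjusted p under 0.05). The change of the line difference from 12 h to 24 h was called upward for none of the 46 by edgeR, for 3 by DESeq2 and for 1 by limma voom. At an unadjusted p under 0.05, 28 were upward and none downward, with 6.13% of all genes in either direction. DTL, which acts on a replication factor, is not on this list and was called upward by edgeR (0.72).

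**Figure D3:**
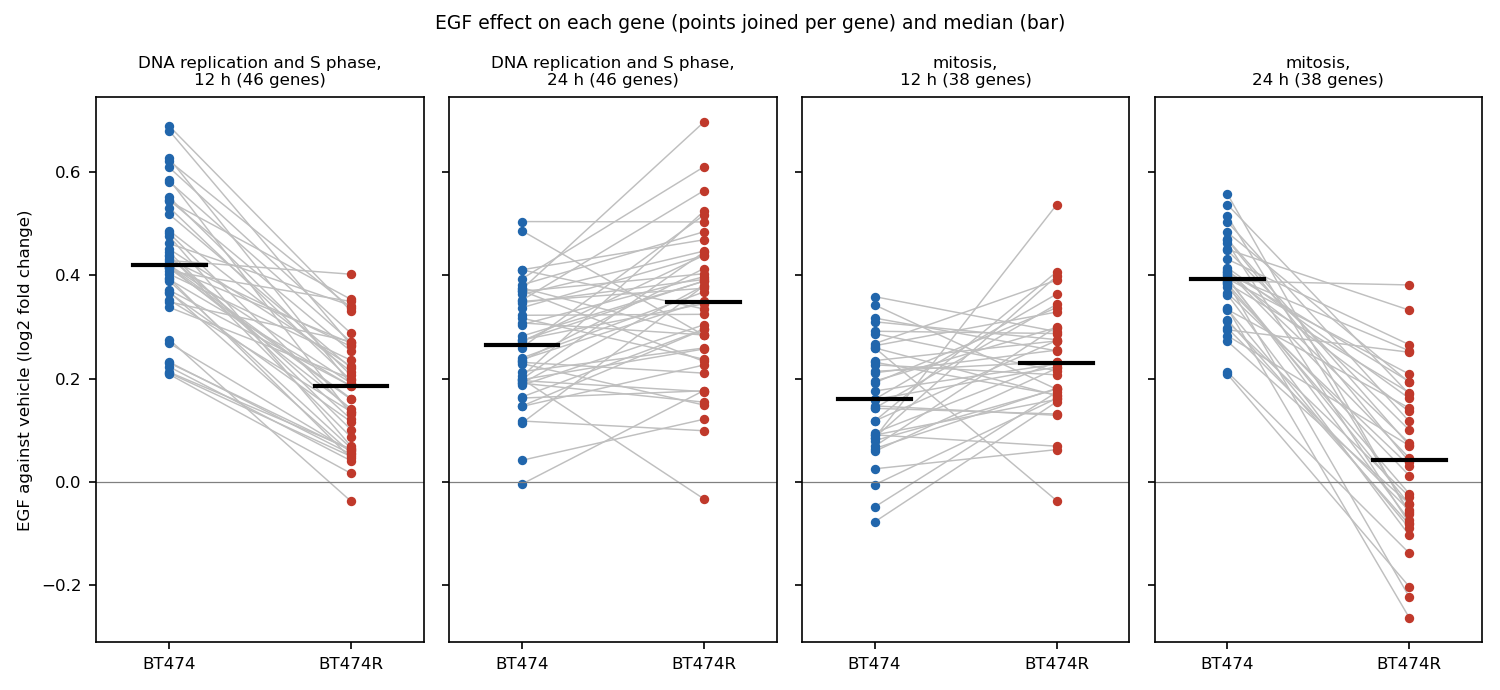
Log2 fold change of EGF against vehicle in BT474 and BT474R at 12 h and 24 h for the 46 genes of DNA replication and the 38 genes of mitosis, 1 point per gene, with the median of each list marked. DNA replication genes are highest in BT474 at 12 h (median 0.42) and mitosis genes in BT474 at 24 h (median 0.39), while mitosis genes in BT474R at 24 h lie around 0 (median 0.04).

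The promoter windows of the mitosis list differed from promoters at large. Of its 31 genes with a RefSeq window, 25 (80.6%) hold CCAAT on either strand, against 33.0% of all windows and 55.0% of the 40 windows of DNA replication genes. The CHR letters were in 16 of the 31 (51.6%), against 13.6% of all windows, 2.5% of the DNA replication windows and 9.68% of the MAP kinase windows. Both runs occurred together in 15 (48.4%), against 4.85% of all windows. CHR letters were in 10 of the 17 windows of genes called in the line difference (58.8%) and in 6 of the 14 of members not called (42.9%). These shares describe the list and not a factor that acts there.

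Genes of luminal identity and steroid receptors split into both directions. Of 36 tested, 5 had a positive difference and 7 a negative one (33.3%, against 4.01% of all genes), with a median near 0. GATA3, the transcription factor that specifies luminal cells, stood at 503 and 520 CPM in BT474 with vehicle and fell to 373 and 357 CPM with EGF. In BT474R it stood at 48.4 and 38.9 CPM and fell to 11.3 and 10.6 CPM. The groups did not overlap, and the level in BT474R was far below that in BT474 throughout. EGF widened this gap on the log2 scale only, with a line difference of -1.52 ± 0.15 (edgeR adjusted p = 4.28e-09).

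ESR1, the oestrogen receptor, began at like levels and ended apart. It was at 119 and 119 CPM and then 83.3 and 75.8 CPM in BT474, and at 111 and 94.2 CPM and then 43.4 and 41.8 CPM in BT474R, a difference of -0.69 ± 0.12. PRLR, the prolactin receptor (-0.55 ± 0.09), and the transcription factors TBX3 (-0.53 ± 0.07), TFAP2A (-0.40 ± 0.09) and XBP1 (-0.33 ± 0.06) had a negative difference too. XBP1 did not itself fall in BT474R (-0.11 ± 0.04, not called) and rose in BT474. All 7 negative genes of the list were also called negative at 12 h (1.03% of all genes). The positive ones were TFF1, a trefoil peptide under oestrogen control (0.68 ± 0.13), the secretory protein AGR2 (0.50 ± 0.08), the progesterone receptor PGR (0.49 ± 0.13), STC2 (0.43 ± 0.12) and TFAP2C (0.36 ± 0.07), none of which was called at 12 h. PGR fell in both lines, from 734 and 687 CPM to 290 and 313 CPM in BT474 and from 30.2 and 26.2 CPM to 16.2 and 17.5 CPM in BT474R, so its positive value is a smaller fall. STC2 lost its call under 1 of 9 alternatives and PGR under 2. With 1 library left out, STC2 lay between 0.26, without replicate 1 of vehicle BT474, and 0.58, and PGR lay between 0.40 and 0.60.

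Of 37 genes of PI3 kinase and insulin signalling, 6 had a positive difference and 1 a negative one, 18.9% called against 4.01% of all genes. IRS1 and IRS2, adaptors of the insulin receptors, rose with EGF in BT474R and did not pass the test in BT474. IRS1 went from 14.6 and 13.5 CPM to 26.0 and 30.4 CPM in BT474R and lay between 38.1 and 43.5 CPM in BT474 (1.00 ± 0.12). IRS2, at 7.23 and 6.73 CPM and then 17.5 and 18.6 CPM in BT474R, lay between 1.65 and 2.13 CPM in BT474 (1.17 ± 0.28). IRS1 was thus lower, and IRS2 higher, in every BT474R library than in any of BT474. DEPTOR, an inhibitor of mTOR, rose in BT474R (1.00 ± 0.13). IGFBP3, a binding protein of insulin-like growth factors, fell in BT474 (difference 1.33 ± 0.35), as did IGFBP2 (0.38 ± 0.08). The call of IGFBP3 was lost under 2 of 9 alternatives, with a value of 0.55 at equal depth, and without 4 of the 8 libraries in turn, and that of IRS2 was lost without 2. PIK3R1, the regulatory subunit of PI3 kinase, fell in BT474R from 101 and 96.0 CPM to 73.5 and 69.3 CPM and stood between 77.9 and 83.5 CPM in BT474 (-0.54 ± 0.10). RICTOR, a subunit of mTOR complex 2, was called at 0.25 ± 0.07, while its EGF effect passed the test in neither line. The line difference of RICTOR lost its call under 2 of 9 alternatives and lay between 0.18 and 0.33 with 1 library left out.

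Adhesion, matrix and mesenchymal genes were more often positive, with 10 higher and 3 lower of 56 (23.2% called, against 4.01%) and a median of 0.15. L1CAM, an adhesion molecule, rose from 1.38 and 1.93 CPM to 8.51 and 9.56 CPM in BT474R and was at 2.07 to 3.53 CPM in BT474 (1.95 ± 0.30). ITGB4, an integrin of hemidesmosomes, rose from 142 and 152 CPM to 379 and 429 CPM in BT474R and from 59.1 and 60.4 CPM to 104 and 97.4 CPM in BT474 (0.70 ± 0.08). Every BT474R library stood above every BT474 library for ITGB4. The urokinase receptor PLAUR (1.23 ± 0.34), the collagen gene COL4A2 (0.75 ± 0.19), ITGA3 (0.56 ± 0.14), ITGA6 (0.46 ± 0.10) and ITGB1 (0.24 ± 0.06) were positive too.

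The mesenchymal markers VIM (0.50 ± 0.13) and CDH2 (0.64 ± 0.18) had a positive difference with no called rise in BT474R. VIM fell in BT474 only by the test (-0.29 ± 0.09), and CDH2 fell in both lines, from 29.6 and 27.7 CPM to 15.2 and 12.5 CPM in BT474 and from 34.2 and 26.8 CPM to 25.9 and 20.5 CPM in BT474R. The negative genes were TGFBI (-0.85 ± 0.23) and TNC (-0.39 ± 0.08), matrix proteins that rose in both lines and more in BT474, and the epithelial cadherin CDH1 (-0.22 ± 0.06), which lost its call under 3 of 9 alternatives and without 4 of the 8 libraries. TGFBI lost its call under 2 alternatives and without 6 libraries. At equal depth the calls of PLAUR, COL4A2 and VIM were lost as well, and leaving out single libraries ended those of PLAUR (6 of 8), CDH2 (5), COL4A2, ITGA3 and ITGB1 (4 each), VIM (3), TNC (2) and ITGA6 (1). With all libraries thinned to equal depth, 6 positive members were called in place of 10, and leaving out 1 library gave 5 to 10.

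Outside any one pathway, several of the genes with the largest positive differences were low in every group but EGF-BT474R. CEMIP, which breaks down hyaluronan, was at 14.7 and 21.6 CPM in EGF-BT474R and at 1.60 to 4.14 CPM in the other 6 libraries (3.56 ± 0.35, edgeR adjusted p = 4.53e-09). LOXL2, an enzyme that cross-links collagen, was at 9.42 and 13.3 CPM there and at 1.37 to 2.40 CPM elsewhere (2.51 ± 0.38). MCTP1 was at 3.62 and 3.70 CPM against 0.746 to 1.29 CPM (2.45 ± 0.41). In these 3 genes only the EGF-BT474R libraries stood apart.

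In a second set of genes, vehicle BT474R stood below every BT474 library and EGF raised the level there. TENM4, a teneurin, was at 5.85 to 8.69 CPM in BT474, at 0.615 and 0.658 CPM in vehicle BT474R and at 4.80 and 5.29 CPM in EGF-BT474R (2.60 ± 0.35). CDKN2B, an inhibitor of CDK4 and CDK6, fell from 3.01 and 2.54 CPM to 1.68 and 1.86 CPM in BT474 and rose from 0.692 and 0.847 CPM to 2.18 and 2.73 CPM in BT474R (2.33 ± 0.31). PLAAT4, a phospholipase and acyltransferase, was at 1.21 to 1.86 CPM in BT474, 0.231 and 0.0941 CPM in vehicle BT474R and 1.96 and 1.14 CPM in EGF-BT474R (2.68 ± 0.52). FABP5, a fatty acid binding protein whose pseudogenes may share its reads, was at the detection limit in vehicle BT474R and at least 2.97-fold higher with EGF, still below every BT474 library, and its call was lost under 5 of 9 alternatives.

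ATP13A5, a membrane ATPase, owed its difference to BT474, where it fell from 0.80 and 0.721 CPM to 0.186 and 0.136 CPM (2.38 ± 0.55). FAM131B was at a mean of 13.7 CPM in EGF-BT474R, at 1.11 and 1.13 CPM in vehicle BT474R and below 1 CPM in BT474, and its call (2.22 ± 0.66) was lost when any of the 8 libraries was left out. C4A, a complement component whose reads may be shared with its near-identical copy C4B, rose from 1.35 and 0.894 CPM to 5.37 and 3.78 CPM in BT474R (2.22 ± 0.39).

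On the negative side, COLEC12, a scavenger receptor, showed a large fall at high counts. It was at 115 and 116 CPM in BT474 with vehicle and 60.3 and 64.2 CPM with EGF, and at 11.4 and 13.6 CPM and then 1.31 and 2.03 CPM in BT474R (-1.99 ± 0.20, edgeR adjusted p = 5.84e-09). NDST4, a heparan sulfate sulfotransferase, fell from 3.53 and 3.30 CPM to 1.04 and 1.36 CPM in BT474 and from 6.0 and 4.61 CPM to 0.305 and 0.244 CPM in BT474R (-2.75 ± 0.56). Both genes fell in both lines and further in BT474R. FSTL5 (-1.73 ± 0.46) and IGSF21 (-1.67 ± 0.37) did so too, and IGSF21 rests on its EGF-BT474R libraries, at 0.654 and 0.163 CPM, with values of -0.97 and -2.95 when one or the other was left out. FSTL5 lost its call without 5 of the 8 libraries.

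H19, an imprinted long noncoding RNA, was among the negative genes although it rose steeply in both lines. It rose with EGF from 6.49 and 5.16 CPM to 47.1 and 81.0 CPM in BT474 and from 3067 and 3978 CPM to 8776 and 9621 CPM in BT474R, a smaller fold (-2.08 ± 0.29) at a far higher level, and its call was lost by limma voom. AKR1B10, an aldo-keto reductase with the close relative AKR1B15, likewise rose from 0.329 and 0.152 CPM to 1.49 and 1.18 CPM in BT474 and from 6.73 and 7.85 CPM to 11.3 and 9.36 CPM in BT474R (-2.01 ± 0.40). GABBR2, a GABA receptor subunit, rose in BT474 from 1.69 and 2.58 CPM to 6.30 and 4.89 CPM and was at 2.24 to 3.53 CPM in BT474R (-1.85 ± 0.29). These 3 genes stood higher in vehicle BT474R than in vehicle BT474.

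RIPOR2 (-1.64 ± 0.36), CCDC177 (-1.70 ± 0.29) and PLAAT2 (-1.91 ± 0.50) fell in BT474R without a called change in BT474. PLAAT2 had uneven replicates, 3.95 and 1.90 CPM in EGF-BT474, and moved to -1.26 without the first of them, one of 4 libraries whose omission ended its call. SLC25A48, a mitochondrial carrier, was at 9.41 to 11.8 CPM in BT474 and at 0.423 and 0.517 CPM in vehicle BT474R, and with EGF it fell there to the detection limit, at least 3.97-fold lower. OTOGL fell to 0 in both EGF-BT474R libraries from 0.269 and 0.329 CPM, at least 2.52-fold lower, and lost its call without 6 of the 8 libraries in turn.

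Smaller lists showed a few called members each, and the plot of the called shares sets them side by side. Of 31 cytokine receptor and JAK-STAT genes, 4 were positive (12.9% called, against 4.01%), and none was negative by edgeR, DESeq2 or limma voom, with 2 negative at an unadjusted p under 0.05. OSMR, the oncostatin M receptor, rose from 7.11 and 7.71 CPM to 15.8 and 17.2 CPM in BT474R and was at 10.1 to 13.6 CPM in BT474 (1.42 ± 0.15). IL1RAP (0.89 ± 0.18), LIFR (0.77 ± 0.14) and IL4R (0.35 ± 0.10) were the others, and LIFR differed through a fall in BT474. IL4R lost its call under 3 of 9 alternatives, DESeq2 among them, and without 5 of the 8 libraries in turn. Of 32 cell death genes, 4 were positive and 2 negative (18.8% called). PMAIP1, a BH3-only protein that promotes apoptosis, rose from 5.19 and 6.02 CPM to 14.4 and 15.2 CPM in BT474R and was at 9.36 to 13.9 CPM in BT474 (1.65 ± 0.20). TNFRSF21 (1.26 ± 0.14) and CASP8 (0.50 ± 0.10) were positive, and BCL2L2, an inhibitor of apoptosis, was negative (-0.35 ± 0.09), a call lost under 2 of 9 alternatives and without 4 of the 8 libraries.

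Axon guidance receptors and ligands, which also act in epithelia, had 6 positive and 4 negative members of 58 (17.2% called, against 4.01% of all genes). EPHA2, an ephrin receptor, rose from 2.08 and 3.29 CPM to 14.1 and 18.4 CPM in BT474R and from 6.63 and 6.57 CPM to 11.7 and 14.2 CPM in BT474 (1.66 ± 0.28). SEMA6A, a semaphorin, rose from 1.84 and 1.46 CPM to 2.88 and 2.73 CPM in BT474R and fell from 11.0 and 9.11 CPM to 5.15 and 3.67 CPM in BT474 (1.91 ± 0.28). EPHA2 thus moved up in both lines and SEMA6A in opposite directions. PLXNA4 (0.94 ± 0.15), SEMA4B (0.69 ± 0.12) and ROBO1 (0.60 ± 0.10) were positive, and PLXNA2 (-1.08 ± 0.27) and UNC5A (-1.15 ± 0.28) negative, UNC5A with uneven EGF-BT474 replicates at 8.32 and 4.21 CPM and a value of -0.55 without the first. Single libraries ended the call of UNC5A (4 of 8) and of PLXNA2 (3 of 8).

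Of the TGF-beta and BMP genes, 3 of 38 were positive and 3 negative (15.8% called, against 4.01% of all genes). NOG, the BMP antagonist noggin, rose from 4.42 and 5.13 CPM to 20.7 and 20.2 CPM in BT474R and from 2.02 and 2.39 CPM to 3.39 and 4.16 CPM in BT474 (1.35 ± 0.32). Its ligands went different ways, BMP4 (0.94 ± 0.24) with a fall in BT474 and BMP7 (-0.58 ± 0.12) with a rise there. BAMBI, a decoy receptor, rose in BT474 and fell in BT474R (-0.66 ± 0.09). Of 43 Wnt genes (9.3% called), FZD8 (1.31 ± 0.13), LEF1 (1.25 ± 0.35) and LGR4 (0.38 ± 0.09) were positive and RNF43 (-0.24 ± 0.06) negative. FZD8, a Wnt receptor, rose from 9.72 and 11.4 CPM to 32.1 and 32.7 CPM in BT474R, and LEF1, a transcription factor of the pathway, fell less there than in BT474. Calls were lost at equal depth for NOG, BMP4, LEF1 and RNF43, and without 5 of the 8 libraries for LEF1 and 4 for BMP4.

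Among metabolic and stress genes, GLUL, glutamine synthetase, rose from 184 and 209 CPM to 323 and 314 CPM in BT474R and fell from 69.3 and 60.3 CPM to 58.6 and 49.2 CPM in BT474 (0.95 ± 0.10). The amino acid carriers SLC1A4 (-0.44 ± 0.07) and SLC7A5 (-0.42 ± 0.09) rose in BT474 and were not called in BT474R. RDH10, a retinol dehydrogenase, rose from 64.1 and 67.8 CPM to 202 and 199 CPM in BT474R and from 11.2 and 11.5 CPM to 18.9 and 21.8 CPM in BT474 (0.77 ± 0.10), while ALDH1A1, which makes retinoic acid, fell in both lines and further in BT474R (-0.88 ± 0.24). ACSL3, which activates fatty acids (-0.26 ± 0.06), rose in BT474 only by the test. S100A9 (2.10 ± 0.40) and the keratin KRT16 (1.57 ± 0.46), whose reads may be shared with close keratin copies, were positive in the basal and squamous list, and KRT80 (-0.63 ± 0.08) and KRT7 (-0.30 ± 0.09) negative. KRT7 lost its call under 3 of 9 alternatives and without 5 of the 8 libraries, KRT16 at equal depth and without 5 libraries, and ALDH1A1 under 1 alternative and without 5 libraries. S100A9 went from 2.31 and 2.82 CPM to 21.1 and 20.1 CPM in BT474R and from 0.612 and 0.342 CPM to 0.932 and 0.815 CPM in BT474.

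No member was called by edgeR, DESeq2 or limma voom among 32 ribosome biogenesis genes, with 2 negative at an unadjusted p under 0.05, among 16 mucin, trefoil and water channel genes, also with 2 negative, or among 3 metallothioneins, with none. The 48 genes of hypoxia and glycolysis had 1 positive member, LOXL2, and 1 negative, CA12 (-0.98 ± 0.23), which stood at 182 to 275 CPM in BT474 and 1.67 to 3.25 CPM in BT474R and moved to -0.64 without replicate 2 of vehicle BT474R. With 2 called of 48 (4.17%), that list lay at the share of all genes. Genes of the mitochondrial genome and interferon ligand genes had no member that passed the filter.

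**Figure D4:**
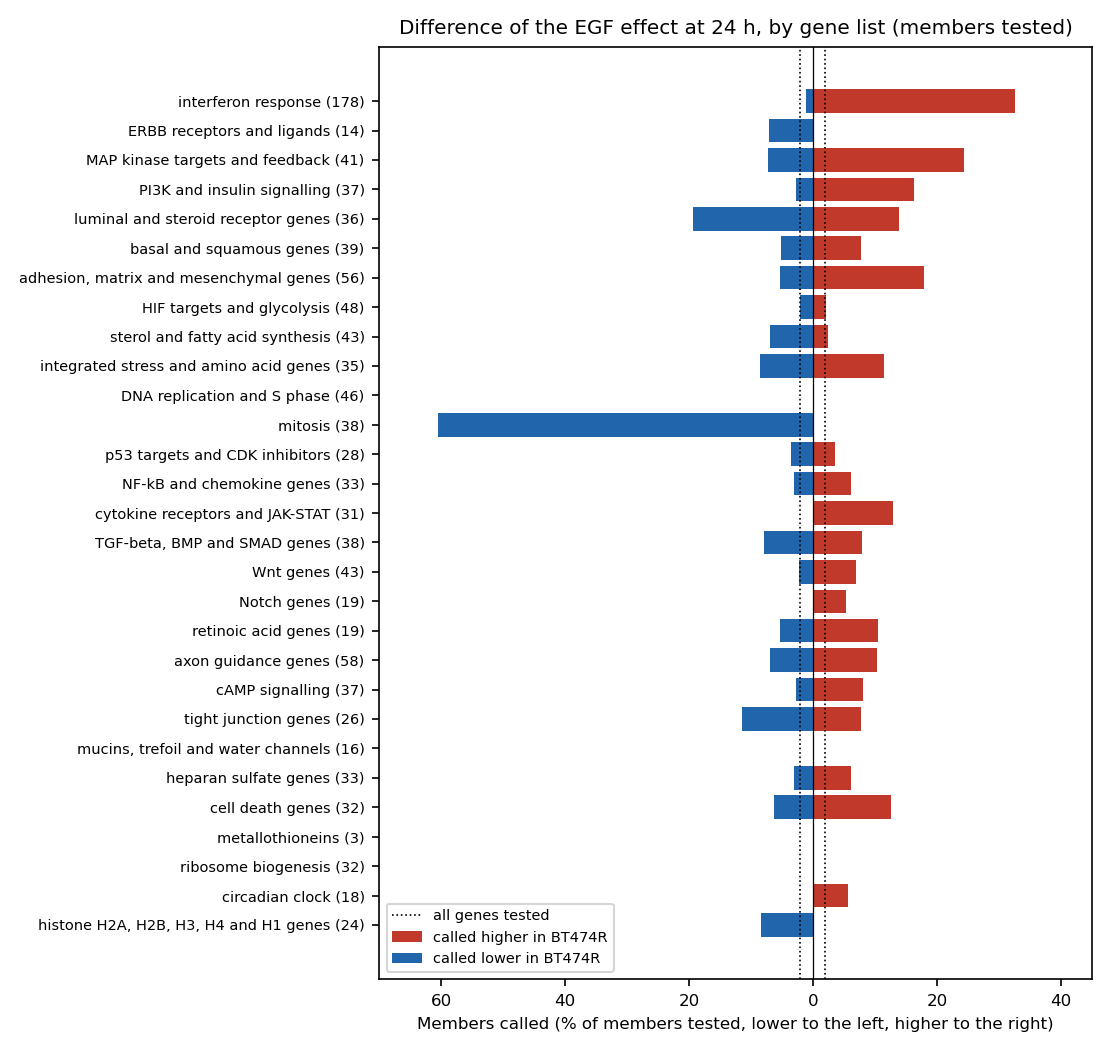
Share (%) of the tested members of each gene list with a called negative (left) or positive (right) line difference at 24 h, with dotted lines at the share of all genes (2.09% and 1.92%). Mitosis has the longest bar on the negative side and none on the positive side, and the interferon response list has the longest on the positive side.

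For completeness, 60 of 178 interferon response genes were called (33.7%), 58 of them positive, with a median of 0.68 over the list. IFITM1 (at least 52.8-fold), GBP1 (at least 95.1-fold) and GBP4 (at least 41.4-fold) were at the detection limit in vehicle BT474R and rose with EGF. TRIM14 (-0.39 ± 0.10) and USP18 (-0.46 ± 0.13) were the 2 negative members. USP18, a brake on interferon receptor signalling, was higher in vehicle BT474R than in BT474. It fell in BT474R with EGF, from 42.6 and 38.0 CPM to 32.5 and 29.1 CPM. Its call was lost under 3 of 9 alternatives, and its line difference lay between -0.54 and -0.35 with 1 library left out.

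The 12 h libraries are separate from those at 24 h. Then, 484 genes (1.96%) had a called line difference, and 301 were called at both times, 30.4% of the 24 h genes and 62.2% of the 12 h genes. Of the 301, 299 had the same sign. Of the 474 genes with a positive difference at 24 h, 437 (92.2%) also lay above 0 at 12 h, against 46.6% of all genes, and of the 515 negative ones 470 (91.3%) lay below 0, against 53.4%. A change of the line difference from 12 h to 24 h was called for 16 genes (0.0649%), upward for 9 (0.0365%) and downward for 7, while 1510 genes (6.13%) had an unadjusted p under 0.05. Mitosis genes made up 5 of the 7, against 0.0284% of all genes called downward. They were UBE2C (-0.85 ± 0.12), KIF20A (-0.76 ± 0.15), CCNB1 (-0.76 ± 0.10), CENPF (-0.63 ± 0.11) and AURKA (-0.60 ± 0.11).

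The largest upward changes were those of WARS1, the tryptophanyl-tRNA synthetase and an interferon target (2.08 ± 0.20), HLA-B (1.70 ± 0.27, with reads that may be shared among HLA copies) and ARNT2, a partner of basic helix-loop-helix factors (1.35 ± 0.23). ARNT2 was at 60.2 and 67.8 CPM in EGF-BT474R at 24 h and at 13.1 to 16.3 CPM in the 6 others, and its EGF effect in BT474R was 0.66 ± 0.11 at 12 h and 2.11 ± 0.11 at 24 h. ERRFI1 (0.88 ± 0.15) and TFF1 (0.86 ± 0.18) changed upward too. TFF1 rose in BT474R from 66.4 and 83.2 CPM to 119 and 126 CPM at 24 h and was at 41.7 to 48.6 CPM in BT474. By 24 h the EGF effect on ERRFI1 had thus grown in BT474R, from 1.14 ± 0.08 to 1.81 ± 0.08, and was 0.55 ± 0.08 and 0.34 ± 0.08 in BT474.

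**Figure D5:**
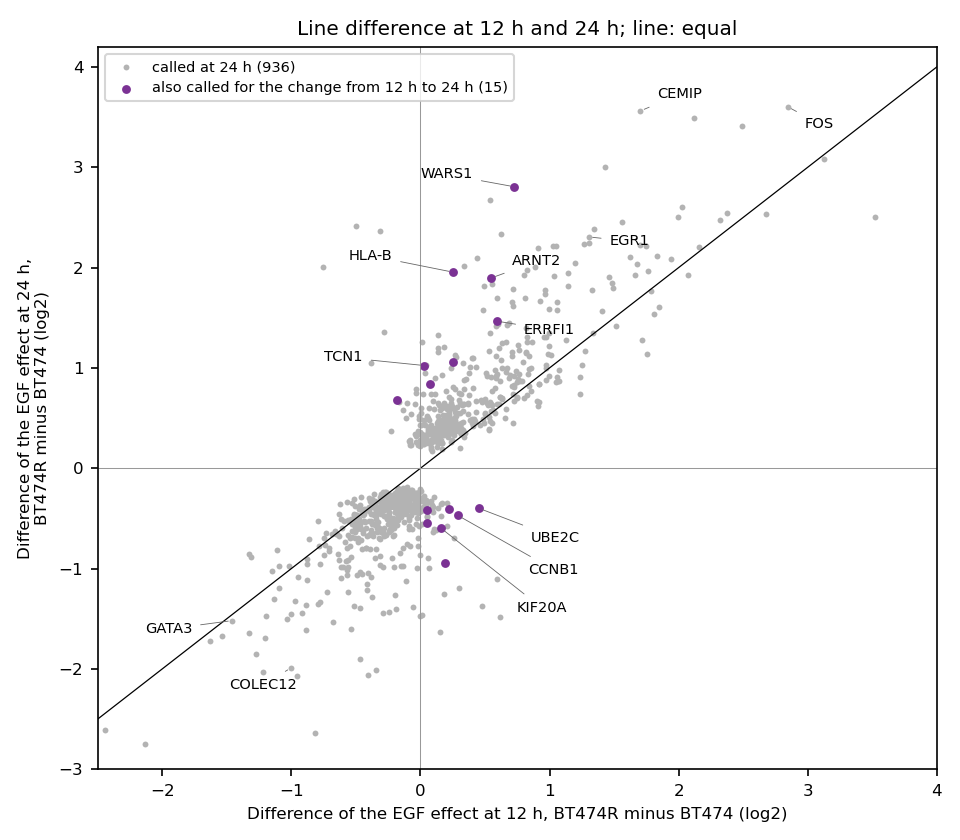
Line difference (log2) at 12 h (x axis) and at 24 h (y axis) of the 951 genes called at 24 h with a mean of at least 1 CPM, with 10 of them outside the axes and the genes called for a change between the times marked. Most points share their sign at both times, and UBE2C, CCNB1 and KIF20A lie right of 0 at 12 h and below 0 at 24 h.

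Before any treatment, at T0, 46.9% of all genes differed between the lines. Of the genes with a negative difference at 24 h, 277 of 515 (53.8%) were higher in BT474R at T0, against 25.1% of all genes and 42.2% of those with a mean of at least 10 CPM. Of the positive ones, 207 of 474 (43.7%) were lower in BT474R at T0, against 21.7% and 28.9%. The called genes had higher counts than genes at large, with a median of 25.7 CPM for the positive and 56.9 CPM for the negative ones, against 3.94 CPM, and a change of a given size is easier to call at higher counts.

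HRG was compared with the same 24 h vehicle libraries, so its values stand beside those of EGF without being independent of them. FOS was at 0.24 ± 0.32 with HRG in BT474R and at -1.48 ± 0.35 in BT474, CEMIP at 0.70 ± 0.30 and -0.26 ± 0.25, and ERRFI1 at 0.29 ± 0.09 and 0.33 ± 0.08. GATA3 fell with HRG in both lines, by 0.70 ± 0.11 and 0.69 ± 0.08 on the log2 scale. Of the 38 mitosis genes, HRG raised 24 in BT474R (median 0.23, with 2.91% of all genes raised) and 37 in BT474 (median 0.47, with 12.6%). PLK1 was at 0.19 ± 0.09 with HRG in BT474R, where EGF gave -0.06 ± 0.09, and at 0.65 ± 0.09 in BT474, where EGF gave 0.56 ± 0.09.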

How the data were processed

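RNA-seq counts per gene were analysed for 40 libraries of BT474 and BT474R, of which the 8 collected at 24 h with vehicle or EGF carry the comparison. The authors checked reads with FastQC and MultiQC, trimmed them with Trim Galore 0.6.6, aligned them to GRCh38.p13 with Rsubread and summed them per gene with featureCounts, and they deposited whole-number raw counts without normalization. The gene annotation used, whether counting used strand, and how reads with several matches were handled were not given in the sources used here. Copy rows, in which a gene's name recurs with a suffix (5078 rows, 2.96% of counts), were treated as genes of their own and none is named here. Of the names tested, 85.7% matched RefSeq.

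A gene was tested when 50% or more of the 40 libraries held 1 or more of its counts. Counts were scaled by TMM and fitted with 20 groups by quasi-likelihood in edgeR 4.0.16 (R 4.3.3), and p-values were adjusted by Benjamini-Hochberg over all 24641 genes, with a threshold of 0.05. The fit of all 40 libraries pools the spread of 20 pairs. Errors are approximate standard errors (SE), taken as the absolute log2 value divided by the square root of its F statistic. The fit was tested on simulated counts with known changes, in which a gene was otherwise at the same level in every group. Of genes given a line difference of 0.5, 1 or 2 (log2), 55.2%, 86.6% and 97% were called. Among the unchanged genes, 8 were called. A gene that was not called may thus still differ by about 0.5. Alternatives were DESeq2 1.42.0, limma 3.58.1 (voom), DESeq2 size factors, other filters, equal depth, summed copy rows, the replicate number as a block, only the libraries compared, and each library left out in turn. The 24 h library totals are those given with the results, and counting intervals and limits cover counting error only.

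The gene lists and the comparison were chosen with earlier results of these data known. Named genes were the 12 with the largest called difference in each direction with a mean of at least 1 CPM, one sign in all 16 pairings of libraries and no place in the interferon list, then up to 4 called genes per list, and 4 receptors (104 genes in all). A further 57 were chosen after their values were seen, which include most of the mitosis, luminal, MAP kinase and adhesion genes given beyond 4 per list, and the genes called for a change from 12 h to 24 h. Their alternatives, and those of the list counts, were also added after the values were seen. Promoter windows came from RefSeq (GRCh38.p14), and motifs were searched on both strands. A few members of the lists that are in the counts are not reported here by name.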

Additional observations from a re-analysis of the deposited data

Results flagged for a closer look

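The EGF effect at 24 h was tested for a difference between the lines, and 989 genes passed, as described above. The same difference was tested between 12 h and 24 h, and 16 genes passed. These values are changes of the line difference on the log2 scale, negative where it moved down in BT474R relative to BT474. The 7 downward genes were KRTAP5-AS1 (-1.14), UBE2C (-0.85), KIF20A (-0.76), CCNB1 (-0.76), CENPF (-0.63), AURKA (-0.60) and MGLL (-0.47). The 9 upward genes were DTL (0.72), FAM83B (0.77), B2M (0.81), TFF1 (0.86), ERRFI1 (0.88), TCN1 (0.99), ARNT2 (1.35), HLA-B (1.70) and WARS1 (2.08).

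Several of these were not described above. MGLL, the monoacylglycerol lipase, rose in BT474 from 155 and 163 CPM to 210 and 209 CPM at 24 h and lay between 105 and 113 CPM in BT474R, with a line difference of -0.41 ± 0.07, and of 0.05 ± 0.06 at 12 h. KRTAP5-AS1, an antisense gene whose reads may include those of its partner since the strand setting is not stated, rose in BT474 from 4.28 and 4.44 CPM to 9.44 and 7.79 CPM and lay between 10.6 and 11.0 CPM in BT474R. TCN1, a vitamin B12 binding protein, stood at 622 to 778 CPM in BT474 and rose in BT474R from 18.5 and 18.4 CPM to 32.1 and 33.9 CPM, with a line difference of 1.02 ± 0.09 at 24 h and 0.03 ± 0.09 at 12 h. FAM83B, which takes part in EGFR and MAP kinase signalling, fell with EGF in BT474 from 38.9 and 41.0 CPM to 18.6 and 19.2 CPM, and in BT474R from 17.1 and 16.6 CPM to a mean of 14.3 CPM. B2M, the light chain of MHC class I, rose in BT474R from 17.0 and 17.1 CPM to 40.2 and 35.7 CPM, up to the 35.7 to 39.4 CPM of BT474. DTL, which directs the breakdown of the replication factor CDT1, had a line difference of -0.45 ± 0.10 at 12 h, which was called, and of 0.27 ± 0.10 at 24 h, which was not.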

How the results depend on the processing

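In all 9 alternatives and 8 leave-outs, every gene of the 989 that was tested there kept its sign (984 with the edgeR filter by group, 934 with copy rows summed), and the median over all genes stayed between -0.0411 and 0.00683. The number called was 914 with DESeq2 (841 shared), 980 with limma voom, 704 at equal depth (670 shared) and 553 with only the libraries compared (543 shared), and 647 to 1107 without 1 library, lowest without replicate 2 of vehicle BT474. With only the libraries compared, EGF called 3011 genes in BT474R in place of 5052, the 12 h difference 1282 in place of 484, and mitosis 12 in place of 23, and the cause was not tested. The 16 genes with a change from 12 h to 24 h became 32 with DESeq2, 59 without a filter and 9 to 42 without 1 library, lowest without replicate 2 of vehicle BT474 or of vehicle BT474R at 12 h (10 without that of EGF-BT474R at 12 h), and highest without replicate 2 of EGF-BT474 at 24 h (30 without that of vehicle BT474R at 24 h). At equal depth, 6 adhesion genes were called in place of 10, and 5 to 10 without 1 library. Leaving out 1 library gave 2891 to 4802 genes for EGF in BT474R (lowest without replicate 1 of vehicle), 1777 to 2553 for EGF in BT474 (lowest without replicate 2 of vehicle, second lowest without replicate 1 of EGF) and 285 to 360 for the 12 h difference, where each of 6 of the 8 libraries moved the count by over 1.5 times. Each leave-out leaves 1 library in a group, which is assumed to vary like the other groups. Mitosis genes called were 16 to 24 without 1 library, MAP kinase genes 7 to 11, luminal genes with a negative difference 7 to 8 and interferon genes 47 to 54. Of the 161 named genes, EGFR and ERBB3, neither of them called, changed sign. ERBB3 was at 0.00794 with DESeq2, 0.00768 with DESeq2 size factors, 0.00806 with copy rows summed, 0.00475 with only the libraries compared and -0.0649 to 0.0359 without 1 library, and EGFR at -0.21 to 0.0388 without 1 library.

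The replicates share a number across groups and are not stated to be paired. With the number as a block within each line and time point, 1138 genes were called at 24 h, 952 of them among the 989. Over 10225 genes, deviations of same-numbered libraries correlated at 0.0177 to 0.305 between the 4 groups. With 2 libraries per group, totals limit what can be seen in genes near 1 CPM, and differences there were not detectable unless large.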

Other observations

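Lists not described above held a few called genes each, chosen with earlier results known and described by their counts, beside 4.01% of all genes. Of 26 tight junction genes, 2 had a positive line difference and 3 a negative one. CGNL1, a cingulin relative, rose in BT474 from 38.8 and 36.1 CPM to 50.5 and 53.3 CPM and stood higher, at a mean of 96.6 CPM with vehicle and 90.5 CPM with EGF, in BT474R (-0.57 ± 0.08). TJP3, a scaffold protein of the junction, was negative in the same way (-0.32 ± 0.07), and CLDN12, a claudin, rose in BT474R (0.46 ± 0.11). Of 37 cAMP signalling genes, 3 were positive and 1 negative. PRKAR1B, a regulatory subunit of protein kinase A, fell in BT474R from 32.2 and 33.4 CPM to 19.6 and 19.7 CPM and lay between 67.7 and 77.1 CPM in BT474 (-0.62 ± 0.08), while PKIB, an inhibitor of that kinase, rose in BT474R from 17.0 and 17.5 CPM to 26.2 and 24.8 CPM (0.60 ± 0.12).

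Of 33 heparan sulfate genes, 2 were positive, the polymerase subunit EXT1 (0.49 ± 0.10) and the proteoglycan SDC4 (0.35 ± 0.07), and NDST4, given above, was negative. Of 33 NF-kB and chemokine genes, CXCL12, a chemokine, differed through a fall in BT474, from 12.1 and 11.9 CPM to 6.97 and 7.29 CPM, with 6.54 to 8.42 CPM in BT474R (0.99 ± 0.18). NFKB2 (0.40 ± 0.11) was positive and NFKB1 (-0.36 ± 0.10) negative, and their calls were lost under 3 and 7 of 9 alternatives, with NFKB1 at -0.22 without replicate 1 of EGF-BT474. Of 28 p53 targets and CDK inhibitors, CDKN2B was positive and BTG2, an antiproliferative gene, negative. BTG2 fell in BT474R from 54.5 and 50.1 CPM to 31.9 and 29.8 CPM and lay between 94.3 and 108 CPM in BT474 (-0.66 ± 0.10). Of 24 histone genes, H2BC5 (-0.52 ± 0.12) and H4C15 (-1.19 ± 0.30), whose reads may be shared with identical histone copies, were negative. Notch genes had 1 called member of 19, MAML2 (1.03 ± 0.29), and clock genes 1 of 18, ARNTL2 (0.88 ± 0.26). Each of the 2 calls was lost under 4 of 9 alternatives. With 1 library left out, MAML2 lay between 0.86 and 1.18 and ARNTL2 between 0.68 and 1.16.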
